A study of Mus musculus with 2 samples.

Results

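The regions described here are the promoter regions that the Etv4 and Etv5 ChIP-seq lists of EpRas cells had in common. A region of the Etv4 list was counted as a shared promoter region when it had at least 1 bp in common with a region of the Etv5 list, lay on a nuclear chromosome and had its midpoint within 2 kb of an annotated transcript start (GENCODE M21 on GRCm38, the assembly that mm10 names). Of the 13636 Etv4 regions, 1499 met this rule. The members were thus chosen by the overlap of the lists and by distance, which are values of the same 2 libraries. EpRas cells derive from EpH4, an epithelial line of the mouse mammary gland, by transformation with oncogenic H-Ras. Both libraries came from cells in medium with 4% serum after 1.5 h with 1 ng/ml TGF-β3. Etv4 was precipitated with a rabbit polyclonal and Etv5 with a mouse monoclonal antibody, with 1 library per antibody. There was thus no spread between replicates to set a difference against, and no test was made. Intervals of shares are exact (Clopper-Pearson) 95% binomial intervals, and intervals of differences are Newcombe 95% intervals. Both cover counting error only and assume independent regions, which neighbours are not. Depth is unknown, because the lists hold no read counts. Cells without TGF-β and control precipitations were not analysed here.

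Etv4 and Etv5 belong to the PEA3 group of the ETS transcription factors, which act downstream of Ras and ERK signalling and bind DNA through a domain that contacts a GGAA core. At promoters, the preferred ETS site of many family members is CCGGAAGT, and such sites are common close to the starts of housekeeping genes in CpG islands. AP-1, a dimer of Fos and Jun family proteins, is also induced by Ras signalling and by TGF-β, and it binds TGACTCA, which reads TGAGTCA on the other strand. In mammary epithelium, ETS and AP-1 factors are known regulators of genes for matrix proteins, adhesion and invasion.

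The sequences under the regions are shown first, since the sites in them set the shared promoters apart from each other in the comparisons that follow. The ETS pattern searched was CCGGAAGT or CAGGAAGT in either orientation within the 500 bp centred on the region. The following stretches of 30 bases surround the ETS pattern of the shared promoter regions at genes of preset lists, in order of the region number in the Etv4 list, 1 for each gene, with the pattern in capitals. The stretches are from GRCm38 and are written 5′ to 3′ on the strand that reads the pattern.
Rps6, chr4:86857440-86857469, minus strand: ttaatctacgcCCGGAAGTaacgcccctct
Fosl2, chr5:32136174-32136203, plus strand: cgagttggccaCAGGAAGTttattctcggg
Sf3b4, chr3:96172492-96172521, plus strand: tgagccttggcCCGGAAGTggaagttgtaa
Ier2, chr8:84664069-84664098, minus strand: tatatgggcatCCGGAAGTggttcgcggcg
Rpl41, chr10:128549206-128549235, minus strand: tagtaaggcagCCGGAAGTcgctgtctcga
Eif2b2, chr12:85219486-85219515, plus strand: cctctctcggcCCGGAAGTgaaacagtgct
Rps10, chr17:27634792-27634821, minus strand: ctccctctgcgCAGGAAGTggagccctttc
Of these 7 sites, 5 read CCGGAAGT and 2 read CAGGAAGT. The sites at Rps6 (a protein of the small ribosomal subunit), Sf3b4 (a splicing factor), Rpl41 (a protein of the large ribosomal subunit) and Eif2b2 (a translation initiation factor subunit) lay at -43, -40, -119 and -81 bp from the nearest transcript start. The site at Fosl2, which encodes an AP-1 subunit, lay 388 bp into the gene and read CAGGAAGT. The site at Ier2, an immediate early gene, lay at -1044 bp from the start of the noncoding gene Gm26664, in a region whose midpoint was 1150 bp from the nearest Ier2 start. The site at Rps10, another gene of the small ribosomal subunit, lay 415 bp downstream of the nearest start.

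AP-1 patterns (TGACTCA or TGAGTCA) of the shared promoter regions at genes of the lists were collected in the same way, and those of 7 genes are written on the plus strand of GRCm38 with the pattern in capitals.
Hist2h4, chr3:96262824-96262853, plus strand: cctagtagcgtTGAGTCAcaaggaaaacta
Ets1, chr9:32695547-32695576, plus strand: gggtgggattcTGAGTCAggtctaggcagg
Fosl1, chr19:5447886-5447915, plus strand: agaggcgcgagTGAGTCAgaaccgcagccg
Hnrnpa1, chr15:103240236-103240265, plus strand: tggggcatcagTGACTCAaaggggcggagt
Cldn4, chr5:134947075-134947104, plus strand: tcctgggccccTGAGTCAcccgccagtatc
Nfkb1, chr3:135671234-135671263, plus strand: cagccgaggccTGACTCActgtaagcacca
Fosl2, chr5:32135843-32135872, plus strand: tgccattgtagTGACTCAtctcgggcagag
The genes encode a histone (Hist2h4), an ETS factor (Ets1), the AP-1 subunits Fra-1 (Fosl1) and Fra-2 (Fosl2), an RNA-binding protein of splicing (Hnrnpa1), a claudin of tight junctions (Cldn4) and an NF-κB subunit (Nfkb1). The pattern of Fosl1 lay at -21 bp and that of Cldn4 at -155 bp from the start, whereas that of Nfkb1 lay at -1909 bp. At Fosl2, the AP-1 pattern lay 56 bp downstream of the start, in the same region as the ETS pattern shown above.

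Regions with an ETS and an AP-1 pattern together, or with 2 ETS patterns, were the exception among the shared promoters, and 4 of them are shown, chosen after their values were seen. The stretches lie upstream of the nearest start and outside annotated exons. They are written on the strand of the gene, with both patterns in capitals (ACTTCCTG and ACTTCCGG are the ETS pattern on the other strand).
Shb, chr4:45489837-45489960, minus strand: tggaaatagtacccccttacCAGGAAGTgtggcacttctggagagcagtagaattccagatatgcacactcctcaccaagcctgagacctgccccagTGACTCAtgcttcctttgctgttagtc
Ippk, chr13:49421086-49421210, plus strand: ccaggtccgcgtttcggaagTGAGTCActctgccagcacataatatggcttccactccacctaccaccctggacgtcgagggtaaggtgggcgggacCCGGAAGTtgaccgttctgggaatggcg
Nadk, chr4:155582346-155582433, plus strand: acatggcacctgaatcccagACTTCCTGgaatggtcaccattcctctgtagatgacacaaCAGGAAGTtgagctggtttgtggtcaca
Fkbp2, chr19:6980555-6980738, minus strand: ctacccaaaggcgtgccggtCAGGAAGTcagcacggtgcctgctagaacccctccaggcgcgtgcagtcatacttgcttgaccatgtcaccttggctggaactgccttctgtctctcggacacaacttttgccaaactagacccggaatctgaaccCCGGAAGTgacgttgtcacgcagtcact
The stretches of Shb (a signalling adaptor) and Ippk (an inositol phosphate kinase) each held 1 ETS and 1 AP-1 pattern, and ended 43 and 39 bp upstream of the start. The stretches of Nadk (NAD kinase) and Fkbp2 (a prolyl isomerase) held 2 ETS patterns each and no AP-1 pattern.

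The overlap that chose these regions was less frequent at promoters than elsewhere in the Etv4 list. Over all nuclear Etv4 regions, 37.8% overlapped an Etv5 region. Of the 4969 Etv4 regions within 2 kb of a start, 30.2% did (interval 28.9 to 31.5%), compared with 42.1% of regions farther away (interval 41.1 to 43.2%). The share was lowest next to the start, at 27.5% within 250 bp, and was 33.8% from 250 to 1000 bp, 34.0% from 1000 to 2000 bp, 38.1% from 2 to 5 kb and 43.0% from 5 to 50 kb. These shares were part of the rule and are given as a description. In the opposite direction, 56.3% of the Etv5 promoter regions overlapped an Etv4 region. The 3470 Etv4 promoter regions without an overlapping Etv5 region are called Etv4-only here, the 1196 Etv5 promoter regions without an Etv4 region Etv5-only, and the 3647 shared regions beyond 2 kb shared distal.

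Within a shared promoter, the Etv5 region was usually the shorter one and lay mostly inside the Etv4 region. Etv4 regions had a median length of 722 bp (quartiles 551 and 955.5) and their Etv5 partners 565 bp (quartiles 425 and 692). The common stretch had a median of 462 bp, which covered 64.7% of the Etv4 region and 95.2% of the Etv5 region. The Etv5 region was wholly inside in 640 of the 1499 pairs. Midpoints were offset by a median of 115 bp, compared with 71 bp in shared distal regions. The overlap reached 50% of both regions in 1005 pairs and was shorter than 50 bp in 19. More than 1 Etv5 region overlapped in 79 cases.

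Each list numbers its regions from 1 upwards by a criterion that is not stated, and low numbers fall on long regions (Spearman correlation of number and length in the Etv4 list -0.85 over the 1499 shared promoters, given as a description). The median Etv4 number of the shared promoters was 4601, at percentile 33.7, and their median Etv5 number 3566, at percentile 43.0. Etv4-only promoters had a median at percentile 60.8 and shared distal regions at percentile 26.3. When the Etv4 list was divided into quintiles by number, 59.4% of the promoter regions overlapped an Etv5 region in quintile 1 and 38.9, 26.3, 19.5 and 13.6% in the following ones. The part of region length, which falls with rising number, in these shares was not tested. The numbers of the same region in both lists were only loosely related (Spearman correlation 0.34 over 1499 regions that come from 1 pair of libraries).

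The shared promoters gathered around the start, but less tightly than the Etv4-only promoters. Their median distance was 227 bp (quartiles 77 and 738), compared with 164 bp in Etv4-only and 247.5 bp in Etv5-only promoters. Midpoints lay within 250 bp of a start in 790 of them (52.7%, interval 50.1 to 55.3%) and in 60.1% of Etv4-only promoters, a difference of -7.44 percentage points (interval -10.4 to -4.44). From 250 to 1000 bp there were 423, and from 1000 to 2000 bp 286. Midpoints were upstream of the start in 794 cases (53.0%, interval 50.4 to 55.5%). The region itself spanned the nearest start in 930 cases (62.0%). A second start in the opposite direction, as at divergent promoters, was present at 15.0% of shared and 15.9% of Etv4-only promoters, and the interval of this difference included 0 (-2.97 to 1.39 percentage points). By annotation, 308 midpoints lay in untranslated exon sequence, 239 in other exons, 554 in introns and 398 between genes.

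**Figure D1:**
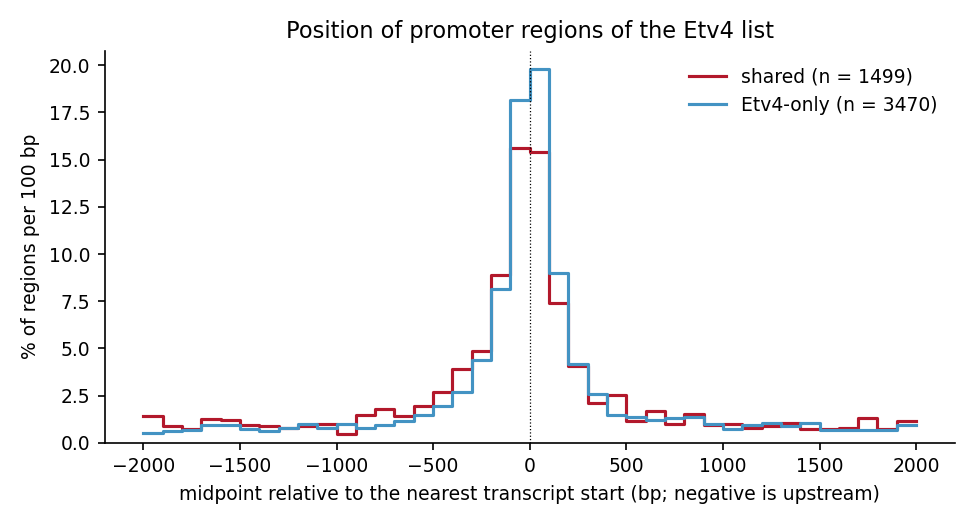
Position of the midpoints of Etv4 promoter regions relative to the nearest transcript start, in bins of 100 bp, as the percentage of the 1499 shared (red) and 3470 Etv4-only (blue) regions. Both classes peak at the start, and the peak of the shared regions is lower, with 52.7% against 60.1% of regions within 250 bp.

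At the limit of 2 kb, the last regions inside were at Rps15a-ps7 (1999 bp), Kdm6b (1997 bp) and Ino80c (1996 bp). The first shared regions outside were near Nadsyn1 (2002 bp), Gm23566 (2009 bp) and Runx1 (2013 bp), so regions on both sides of the limit are alike in distance.

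The sequence of the shared promoters was a mixture of CpG islands and CpG-poor DNA. CpG-rich sequence (GC of at least 50% and an observed to expected CpG ratio of at least 0.6 in 500 bp) was found in 658 of them (43.9%, interval 41.4 to 46.5%). Windows of the same length centred on the starts of all protein-coding genes were CpG-rich in 47.6% of cases, and windows near starts that held no region of either list in 5.41%. Etv4-only promoters were CpG-rich in 53.5% of cases, 9.65 points more than the shared ones (difference -9.65, interval -12.6 to -6.63). Etv5-only promoters were at 46.2% (difference -2.34, interval -6.12 to 1.44), and shared distal regions at 1.73%.

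AP-1 was the more frequent of the 2 patterns in the shared promoters. It was present in 409 of them (27.3%, interval 25.0 to 29.6%), compared with 6.41% of windows on protein-coding starts and 7.51% of all windows near starts that held no region. Windows near starts without a region of either list, weighted to the GC content and distance of the shared promoters, held it in 5.96% of cases, so that the enrichment was 4.58-fold (interval 4.20 to 4.97). Etv4-only promoters held AP-1 in 16.4% of cases, 10.9 points fewer (interval 8.38 to 13.5), and Etv5-only promoters in 13.5% (difference 13.7, interval 10.7 to 16.7). Shared distal regions held it in 51.2% of cases.

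The ETS pattern was present in 183 shared promoters (12.2%, interval 10.6 to 14.0%), compared with 10.2% of windows on protein-coding starts, 4.21% of all windows without a region and 5.94% of the weighted windows (2.05-fold, interval 1.78 to 2.35). The pattern written backwards, a control of equal composition, was in 3.87% and in 3.58% of windows on protein-coding starts (0.894-fold over the weighted windows, interval 0.682 to 1.15). Etv4-only promoters held the ETS pattern in 14.0% of cases, and the interval of the difference included 0 (-1.83 points, interval -3.79 to 0.253). Shared distal regions held it in 7.76% (difference 4.45, interval 2.64 to 6.39) and Etv5-only promoters in 8.53% (difference 3.68, interval 1.36 to 5.96). The strict form CCGGAAGT, which is contained in the ETS pattern, was in 94 shared promoters (6.27%, 2.70-fold over the weighted windows) and in 5.87% of windows on protein-coding starts. It was in 8.79% of Etv4-only promoters and in 0.768% of shared distal regions. It contains CpG, and the windows were not weighted to the CpG ratio, so the part of CpG content in its fold was not tested. For this form, shared promoters were below Etv4-only promoters by an interval without 0 (-2.52 points, interval -4.01 to -0.904). Neither the ETS nor the AP-1 pattern was found in 939 shared promoters (62.6%), both were found in 32, and 16 had at least 2 ETS sites.

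**Figure D2:**
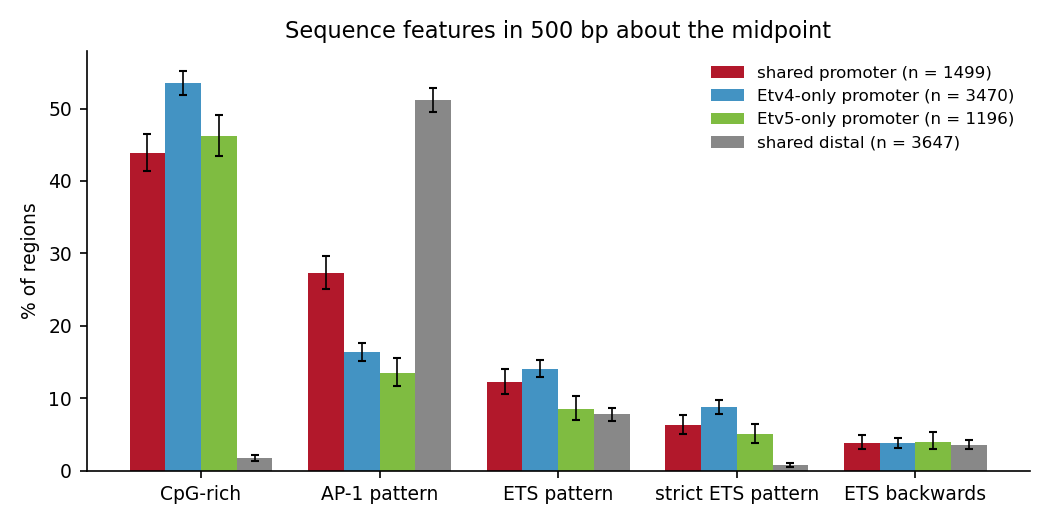
Percentage of regions that were CpG-rich or held a pattern in 500 bp around the midpoint, for shared promoter (red), Etv4-only promoter (blue), Etv5-only promoter (green) and shared distal regions (grey), with exact 95% binomial intervals as error bars. For AP-1, shared promoters (27.3%) lie between Etv4-only promoters (16.4%) and shared distal regions (51.2%), while the backwards ETS control is near 4% in every class.

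The shares of the patterns in the shared promoters differed with position. Among the 790 regions within 250 bp of a start, 67.6% were CpG-rich, 15.1% held the ETS pattern, 9.62% its strict form and 15.9% AP-1. Among the 286 regions from 1000 to 2000 bp, 4.55% were CpG-rich, 10.1% held the ETS pattern, 2.80% its strict form and 47.9% AP-1, and the 423 regions from 250 to 1000 bp were intermediate for AP-1 (34.5%) and CpG-rich sequence (26.2%). Over the weighted windows, AP-1 was 3.22-, 5.42- and 5.88-fold from the nearest to the farthest class. The ETS pattern was 2.07-, 1.89- and 2.21-fold and its strict form 2.56-, 2.92- and 4.81-fold (the last from 8 regions), with overlapping intervals. The lower ETS shares away from the start were thus not lower over these windows. Etv4-only promoters were graded in the same way, with AP-1 in 9.82, 20.6 and 34.7% and CpG-rich sequence in 76.4, 28.2 and 5.40% of the 3 distance classes. The excess of AP-1 over Etv4-only promoters was found in all 3 distance classes, with 6.13 points within 250 bp (interval 3.38 to 9.10), 14.0 points from 250 to 1000 bp (interval 8.72 to 19.3) and 13.2 points from 1000 to 2000 bp (interval 6.18 to 20.1). The lower CpG-rich share was measured within 250 bp (-8.83 points, interval -12.6 to -5.15), whereas the intervals included 0 from 250 to 1000 bp (-1.93 points, interval -7.00 to 3.36) and from 1000 to 2000 bp (-0.850 points, interval -3.74 to 2.61). For the strict ETS pattern, the difference from Etv4-only promoters was -3.75 points within 250 bp (interval -6.16 to -1.10) and 0.659 points beyond (interval -0.606 to 2.22).

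The division by CpG content was sharper. The 658 CpG-rich shared promoters held AP-1 in 6.08% of cases (1.46-fold over weighted windows) and the strict ETS pattern in 11.9% (3.13-fold). These windows were weighted to GC content and distance but not to the CpG ratio, so they need not be CpG-rich themselves. The 841 other shared promoters held AP-1 in 43.9% (5.96-fold) and the strict ETS pattern in 1.90% (1.62-fold, interval 0.927 to 2.61). The weighted windows held the strict pattern in 3.79% of cases for the CpG-rich and in 1.18% for the other shared promoters. Etv4-only promoters were divided alike, with AP-1 in 5.60% of CpG-rich and 28.8% of other regions and the strict ETS pattern in 14.5 and 2.23%. Compared with Etv4-only promoters of the same kind, AP-1 was higher by 15.1 points where the sequence was not CpG-rich (interval 11.1 to 19.1) and by 0.482 points in CpG-rich sequence, with an interval that included 0 (-1.47 to 2.78). The strict ETS pattern differed from Etv4-only promoters by -2.62 points in CpG-rich sequence (interval -5.43 to 0.473) and by -0.331 points elsewhere (interval -1.44 to 0.987). The sites themselves followed the same division in the shared promoters, and their distances were not measured in the other classes. The 199 ETS sites had a median distance of 180 bp from the start and 73.4% of them were upstream, whereas the 533 AP-1 sites had a median distance of 663 bp and 54.97% were upstream. Of the ETS sites in regions within 250 bp of a start, 63.4% read CCGGAAGT, compared with 27.7% in regions farther away.

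Region number also divided the shared promoters. In quintile 1 of the Etv4 list, the 517 shared promoters held AP-1 in 32.5% of cases and the 353 Etv4-only promoters in 12.2%, a difference of 20.3 points (interval 14.9 to 25.4). The difference was 13.1 points in quintile 2 (interval 7.21 to 19.0) and 8.94 points in quintile 3 (interval 3.42 to 14.9). It was 0.18 points in quintile 4 (interval -4.92 to 6.24) and -0.532 points in quintile 5 (interval -6.13 to 6.64). CpG-rich sequence went in the opposite direction. In quintile 1, 32.5% of shared and 57.5% of Etv4-only promoters were CpG-rich (difference -25.0, interval -31.4 to -18.3), whereas in quintile 5 the shares were 58.0% and 48.0% (difference 10.1, interval 1.26 to 18.5). Between them, the CpG-rich difference was -23.1 points in quintile 2 (interval -29.5 to -16.4), 0.314 in quintile 3 (interval -6.42 to 6.95) and 4.84 in quintile 4 (interval -2.71 to 12.2). For the ETS pattern, only the interval of quintile 2 lay to 1 side of 0 (-6.62 points, interval -11.3 to -1.61). An excess of AP-1 over Etv4-only promoters beyond counting error was thus measured in quintiles 1 to 3, where regions are longer, whereas CpG-rich sequence was less frequent in the shared promoters in quintiles 1 and 2 and more frequent in quintile 5.

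**Figure D3:**
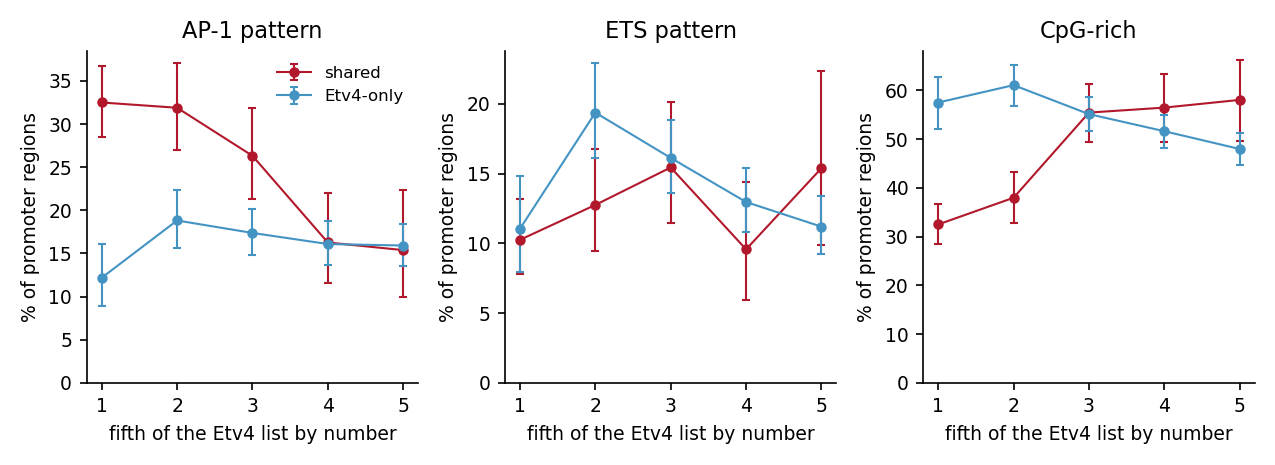
Percentage of promoter regions with the AP-1 pattern, with the ETS pattern and with CpG-rich sequence in each quintile of the Etv4 list by region number (1, lowest numbers), for shared (red) and Etv4-only (blue) regions, with exact 95% binomial intervals. AP-1 is at 32.5% against 12.2% in quintile 1, and both classes are near 16% in quintiles 4 and 5.

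Around the midpoint, AP-1 sites formed a narrow peak and ETS sites a broad one. The central 200 bp of the shared promoters held 0.971 AP-1 sites per kb, 4.82 times the density from 500 to 1000 bp away, and 0.284 ETS sites per kb, 2.99 times that density. The backwards control was at 0.942 times. In Etv4-only promoters the ratio was higher for ETS (4.03) and lower for AP-1 (3.40), and in shared distal regions it was 10.4 for AP-1. In bins of 100 bp, the ETS density of the shared promoters lay between 0.227 and 0.314 sites per kb in the bins centred on -350 to 150 bp, and was highest in the bin centred 150 bp to the right of the midpoint.

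**Figure D4:**
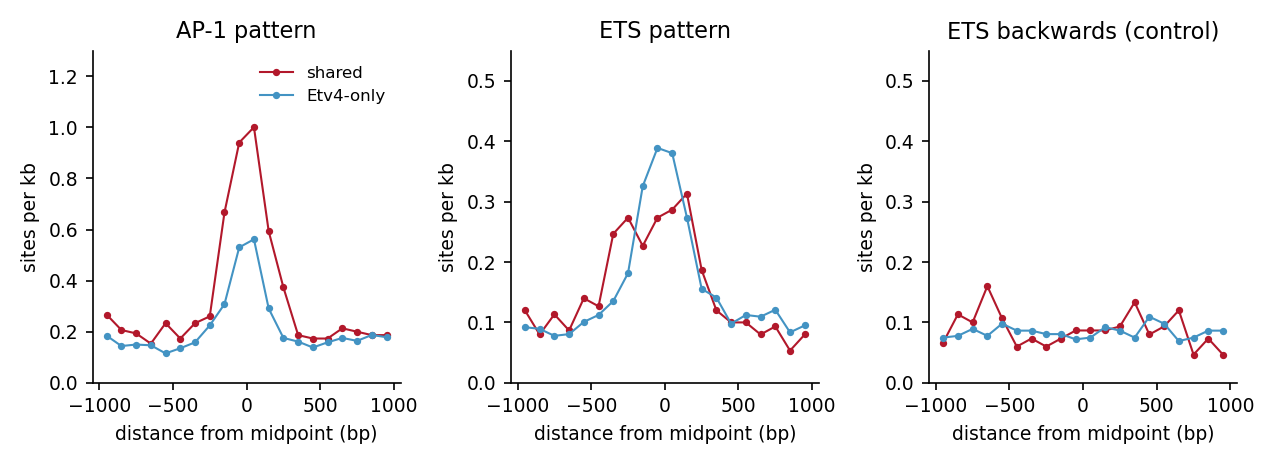
Sites per kb in bins of 100 bp by distance from the midpoint along the plus strand, for the AP-1 pattern, the ETS pattern and the backwards ETS control, in shared (red) and Etv4-only (blue) promoter regions, on separate vertical scales for AP-1 and ETS. In the shared regions AP-1 reaches 1.00 site per kb next to the midpoint, and the control shows no peak.

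ETS and AP-1 proteins can bind side by side, so the neighbourhood of AP-1 sites was searched for an ETS core (AGGAA or CGGAA). Of the 409 shared promoters with AP-1, 73 (17.8%, interval 14.3 to 21.9%) had such a core with edges at most 10 bp from the AP-1 pattern. The core written backwards was as near in 67 (16.4%, interval 12.9 to 20.3%), and the share was 17.3% in Etv4-only promoters and 17.5% in shared distal regions. The adjacency of short letters in the shared promoters was thus no more frequent than with the backwards core beyond counting error. Cases with low region numbers at protein-coding genes, beside that of Hist2h4 shown above, are printed here on the strand that reads the ETS core, with core and AP-1 pattern in capitals.
Ltbp3, chr19:5743822-5743851, plus strand: tgggTGACTCActggaaagcAGGAAgaaga
Prss22, chr17:23998427-23998456, plus strand: tttggggtAGGAAgTGACTCAgtctgaaat
Plec, chr15:76196461-76196490, plus strand: gtgctgTGACTCActcgaaAGGAAgctgta
Plin2, chr4:86672028-86672057, minus strand: tttaacaagAGGAAgTGACTCActggcttg
The core was 1 bp from the AP-1 pattern at Prss22 (a serine protease) and Plin2 (a lipid droplet protein), 6 bp at Plec (plectin, a cytoskeletal linker) and 9 bp at Ltbp3 (a latent TGF-β binding protein). Beside the AP-1 pattern of Hist2h4 a core was 2 bp away.

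Of the other patterns, those of Tead and Runx differed most in share from Etv4-only promoters. The Tead pattern (CATTCCA or CATTCCT), bound by partners of Yap, was in 20.5% of them and in 14.8% of Etv4-only promoters (difference 5.79, interval 3.48 to 8.20). The Runx pattern (TGTGGTT or TGTGGTC) was in 20.1% and 16.0% (difference 4.11, interval 1.79 to 6.53). Compared with Etv5-only promoters, the intervals of both differences included 0 (2.65 points for Tead, interval -0.354 to 5.62, and 2.69 points for Runx, interval -0.290 to 5.62). Both were higher still in shared distal regions, at 32.1 and 30.2%, and were in 12.8 and 13.2% of windows on protein-coding starts. The cyclic AMP response element TGACGTCA was in 2.47% of shared and 3.60% of Etv4-only promoters (difference -1.13, interval -2.09 to -0.0555). Windows on protein-coding starts held it in 2.74%, and it contains no AP-1 match. Among patterns typical of CpG islands, the YY1 pattern AAGATGGCG was in 6.54% of CpG-rich shared promoters (2.97-fold over weighted windows), and over all shared promoters the YY1 pattern was in 2.94% (2.11-fold, interval of the share 2.14 to 3.92%) and the NRF1 pattern in 1.13% (2.06-fold, interval of the share 0.662 to 1.81%). Windows on protein-coding starts held them in 2.83 and 1.37% of cases, which both intervals included. The YY1 and NRF1 patterns contain CpG, and the weighted windows were not weighted to the CpG ratio. Within 250 bp of a start, 5.19% of shared promoters held the YY1 pattern (interval 3.75 to 6.98%). Etv4-only promoters were similar, with YY1 in 3.43% (2.27-fold) and NRF1 in 1.35% (2.10-fold) overall and YY1 in 5.13% within 250 bp. The GC box GGGCGGGG was in 19.5% (1.17-fold) and the CCAAT box (CCAATC or CCAATG) in 33.2% (1.08-fold), compared with 26.6 and 35.9% of windows on protein-coding starts. In the shared promoters within 250 bp of a start they were in 29.2% (interval 26.1 to 32.5%) and 38.2% (interval 34.8 to 41.7%), intervals that included the window shares. In CpG-rich sequence, the GC box was more frequent in shared than in Etv4-only promoters (difference 5.74 points, interval 1.57 to 10.02). So was the CCAAT box, at 40.7% (interval 36.9 to 44.6%) compared with 32.5% (interval 30.3 to 34.6%). Without this division, the differences from Etv4-only promoters were -0.290 points for the GC box (interval -2.65 to 2.16) and 1.11 points for the CCAAT box (interval -1.71 to 3.98). Over all shared promoters, both were less frequent than in Etv5-only promoters, with differences of -5.69 points for the GC box (interval -8.87 to -2.53) and -6.39 points for the CCAAT box (interval -10.0 to -2.74). The Smad box GTCTAGAC was in 14 shared promoters (0.934%, interval 0.512 to 1.56%) and in 0.324% of windows on protein-coding starts. It was also in 0.634% of Etv4-only promoters, with an interval of the difference that included 0 (0.300 points, interval -0.197 to 0.963), and in 0.823% of shared distal regions. The E-box CACGTG was in 11.7% of shared and 12.05% of Etv4-only promoters, the serum response element (CArG box) in 2.54 and 2.48%, and the CTCF pattern in 0.867 and 0.778%. Windows on protein-coding starts held these 3 patterns in 10.4, 2.01 and 0.717% of cases. A TATA box (TATAAA, 20 to 40 bp upstream on the strand of the gene) preceded 22 of the 1089 nearest starts that were protein-coding (2.02%, interval 1.27 to 3.04%) and 2.27% of the most upstream starts of all protein-coding genes. Each pattern was searched on both strands except TATAAA, and a match says only that the letters are present.

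The shared promoters lay within 2 kb of starts of 1236 of the 21911 protein-coding genes (5.64%), and the Etv4-only promoters at 2977 (13.6%), with 295 genes in both groups. Of the 1499 regions, 989 lay at 1 protein-coding gene, 181 at 2 or more and 329 at none. The nearest start belonged to a protein-coding gene in 1089 cases, to a lincRNA in 126, to an antisense RNA in 71 and to a miRNA in 33. Gene lists were counted by this measure. They were chosen with earlier results of these data known, a region can count for several neighbouring genes, and the background for each is 5.64%.

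**Figure D5:**
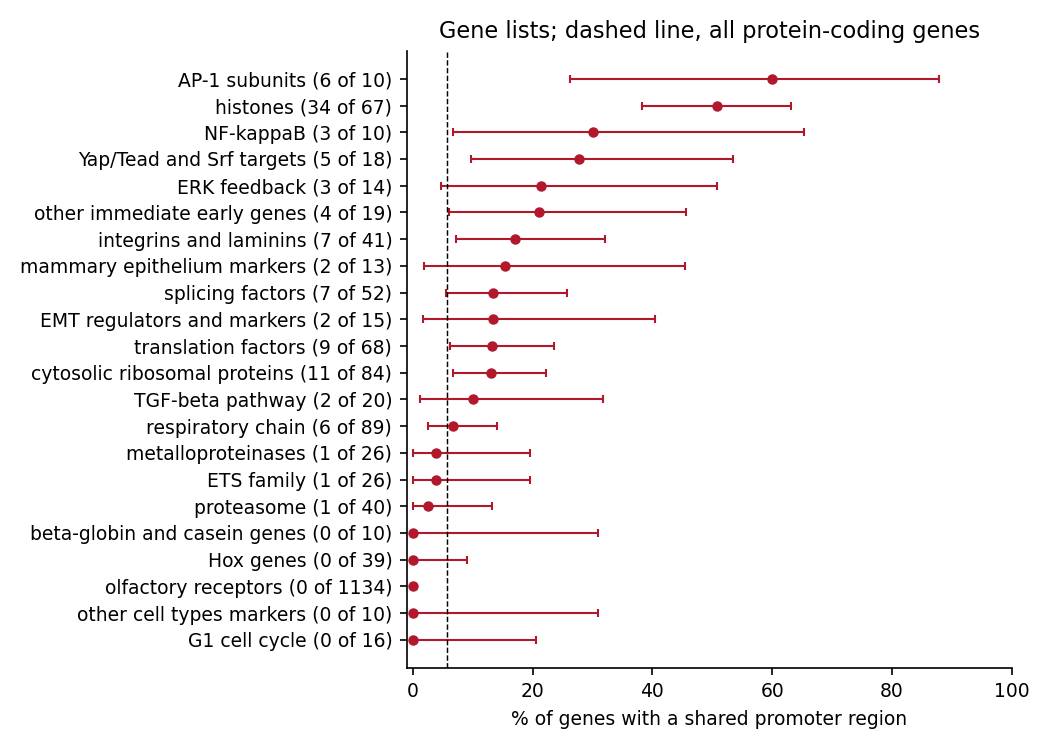
Percentage of the genes of each list with a shared promoter region within 2 kb of a start, with exact 95% binomial intervals over genes, and the counts beside the list names. The dashed line marks all protein-coding genes (5.64%), and AP-1 subunits (6 of 10) and histones (34 of 67) lie highest.

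Genes for AP-1 subunits had the highest share of shared promoters, with 6 of 10. Junb had 2 of them, a region of 3288 bp over the start (chr8:84977228-84980515, Etv4 number 297 and Etv5 number 542) and one of 1891 bp over a start farther downstream (Etv4 number 342 and Etv5 number 7486). The second therefore stood early in the Etv4 and late in the Etv5 list. The region of Jund (chr8:70698384-70699265) had Etv4 number 1409 and Etv5 number 615, and that of Atf3 (chr1:191182768-191183873) had 2827 and 849. Fosl1, Fos and Fosl2 followed in the Etv4 list with numbers 2856, 3608 and 5053, and in the Etv5 list with 4403, 2790 and 7558. Of the 7 regions, 6 lay within 250 bp of a start and 6 were CpG-rich, compared with 52.7 and 43.9% of all shared promoters. The AP-1 pattern was found in those of Fosl1 and Fosl2, so 2 of 7 held it, near the 27.3% of all shared promoters.

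Among other immediate early genes, 4 of 19 had a shared promoter. They were Ier2, Ier5, Klf10 and Maff. Klf10, a TGF-β induced zinc finger factor, had its midpoint 13 bp from the start, with number 1586 in the Etv4 and 903 in the Etv5 list. Genes for feedback inhibitors of ERK signalling were represented by 3 of 14, the dual specificity phosphatases Dusp5, Dusp6 and Dusp10. The 2 regions of Dusp6 were listed next to each other, at chr10:99261352-99262396 and chr10:99262464-99263777, and all 4 regions of this list were CpG-rich without an ETS or AP-1 pattern. Over all shared promoters, 43.9% were CpG-rich and 62.6% held neither pattern. The NF-κB list had 3 of 10, Nfkb1, Nfkbia and Nfkbiz, the last of them with its midpoint 4 bp from the start.

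Genes of the cytoskeleton and of cell adhesion were also present. Of the Yap/Tead and Srf targets, 5 of 18 had a shared promoter, namely Ankrd1, Amotl2, Actb, Tpm1 and Myh9. Ankrd1, a Yap target, stood early in both lists (number 1345 in the Etv4 and 729 in the Etv5 list), whereas Amotl2 had number 1903 in the Etv4 and 8098 in the Etv5 list. Of the integrin and laminin genes, 7 of 41 had one, among them the integrins Itga3, Itgb1, Itgb2 and Itgb3 and the laminin chains Lama3 and Lamb3 of the epithelial basement membrane. Lama3 held 2 AP-1 patterns, at a midpoint 314 bp from the start, and Lamb3 (chr1:193301128-193302742) held none. Of the 10 regions at integrins and laminins, 4 held AP-1 and none held the ETS pattern, compared with 27.3 and 12.2% of all shared promoters.

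Epithelial markers were represented by Krt14 and Cldn4 (2 of 13), and the list of markers of other cell types, such as Ptprc and Alb, by 0 of 10. Of the EMT list, 2 of 15 genes had a shared promoter, Vim and Esrp1, both with midpoints more than 1500 bp upstream of the start (1560 and 1637 bp). Of the TGF-β pathway genes, 2 of 20 had one. One of them, Smad7, which encodes an inhibitory Smad, had 2 regions, with Etv4 numbers 946 and 7915 and Etv5 numbers 1407 and 3097. Among the ETS family genes, Ets1 was the only one of 26, and among metalloproteinase and Timp genes Mmp24 the only one of 26. For the signalling, adhesion and marker lists named so far, the intervals included the share of all genes, except for AP-1 subunits, NF-κB, Yap/Tead and Srf targets, other immediate early genes and integrins and laminins. Etv4-only promoters were found at more genes than shared ones in 4 of these 5 lists, with 4 of 10 NF-κB genes, 10 of 18 Yap/Tead and Srf targets, 7 of 19 other immediate early genes and 9 of 41 integrin and laminin genes, and at 2 of 10 AP-1 subunit genes. Beside the 13.6% of all genes, the intervals of these Etv4-only shares lay higher for the Yap/Tead and Srf targets (30.8 to 78.5%) and the other immediate early genes (16.3 to 61.6%) and included it for the other 3 lists.

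Histone genes stood out by the shape of their regions. Of 67 genes of the replication-dependent clusters, 34 had a shared promoter (50.7%, interval 38.2 to 63.2%), covered by only 18 regions since the genes lie close together. About as many histone genes, 35 of 67, had an Etv4-only promoter (52.2%, interval 39.7 to 64.6%). The shared regions had a median length of 1739.5 bp (range 1158 to 4620), their Etv5 partners one of 543 bp, and the common stretch covered a median of 22.4% of the Etv4 region. Their median number was at percentile 2.40 among Etv4 regions and 50.8 among Etv5 regions. Over all shared promoters, the corresponding values were percentiles 33.7 and 43.0. The Etv4 midpoints lay a median of 238.5 bp downstream of the start and the Etv5 midpoints 2 bp downstream. An example is the region at Hist1h2ag, Hist1h2bj and Hist1h4i (chr13:22039816-22044435, 4620 bp), which had Etv4 number 306 and Etv5 number 4061. Of the 18, 14 were CpG-rich, none held the ETS pattern and 4 were mostly multicopy, meaning that over 50% of their 36-base sequences occur elsewhere in the assembly. Among all 1499 shared promoters, 43.9% were CpG-rich, 12.2% held the ETS pattern and 4.27% were mostly multicopy.

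Genes of basic cell functions had more Etv4-only than shared promoters, as protein-coding genes did as a whole (2977 and 1236 genes). Of 84 genes for cytosolic ribosomal proteins, 11 had a shared promoter (13.1%, interval 6.72 to 22.2%) and 56 an Etv4-only promoter (66.7%). Their 11 regions were all CpG-rich, 10 lay within 250 bp of a start and 3 held the ETS pattern (Rps6, Rpl41 and Rps10, shown above). The corresponding shares of all shared promoters were 43.9, 52.7 and 12.2%. Splicing factor genes had 7 of 52 shared and 25 Etv4-only, translation factor genes 9 of 68 and 22, respiratory chain genes 6 of 89 and 31, and proteasome genes 1 of 40 and 12. For G1 cell cycle genes the counts were 0 of 16 and 6. Beside the 13.6% of all genes, the exact intervals of the Etv4-only shares lay higher in all 6 lists. Beside the 5.64% of all genes, those of the shared shares lay higher for ribosomal proteins and translation factors (13.2%, interval 6.23 to 23.6%) and included it for the other 4 lists. Gene families typical of other tissues or stages gave no shared promoter, with 0 of 1134 olfactory receptor genes (upper limit of the exact interval 0.325%), 0 of 39 Hox genes and 0 of 10 β-globin and casein genes. For the latter 2 lists the upper limits were 9.03 and 30.9%, above the 5.64% of all genes, so a lower share was not detectable with so few genes.

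Some genes had several shared promoter regions, at separate starts or next to one start. At least 2 were counted at 108 protein-coding genes and at least 3 at 15 genes. Sfi1 had 6, Plec and Tnk2 (a tyrosine kinase) had 4 each, and 3 each were counted at genes that include Abcb8, Adcy7, Capns1, Gm3448, Itga3, Myo1c, Plin2, Rptor, Slc3a2, Tlcd2 and Ubtd1. The 6 regions of Sfi1 were 5394 to 9946 bp long, far above the median of 722 bp, and lay close together on chromosome 11. The 4 regions of Plec lay at different starts of this gene and held 4 AP-1 sites. Itga3 (integrin α3) had 3 regions within a stretch from chr11:95075239 to 95078546, without an ETS or AP-1 pattern. Plin2 had an early region in both lists (chr4:86671598-86672446, number 832 in the Etv4 and 292 in the Etv5 list).

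Regions without a protein-coding start were more frequent among the lowest numbers than among all shared promoters. Leaving out mostly multicopy regions, the 15 lowest were at Gm26917 (number 2), Gm21738, Gm15564, Gm24270, Gm4799, Gm18604, Sspn, Mir6236, Mpnd, Mphosph8, Gm25911, Gm25732, Gm9353, Gm27940 and Ank1 (number 102). In each of them the common stretch covered at least 89.85% of the Etv4 region. Of the first 50 shared promoters by number, 21 (42.0%) had no protein-coding start within 2 kb, 15 had a small RNA gene as the nearest start, 8 were mostly multicopy and 4 held AP-1. Over all 1499, 21.9% had no protein-coding start, 69 had a small RNA gene as the nearest start, 64 were mostly multicopy and 27.3% held AP-1. The longest regions were at Gm10719 (38943 bp, 90.7% of its 36-base sequences multicopy), at Sfi1 (9946, 9535 and 7465 bp) and at Mir21a (7262 bp). The Mir21a region (chr11:86578705-86585966) had number 122 in the Etv4 list, and its Etv5 partner of 598 bp had number 4143, with 8.23% of the Etv4 region in common. No input library was used in the calling, and the part of copy number or mappability in these regions was not tested.

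The shared promoters were unevenly spread over chromosomes. There were 6.83 per 100 protein-coding genes in all, with 15.0 on chromosome 19, 12.9 on chromosome 15, 11.0 on chromosome 11 and 10.8 on chromosome 1. Chromosome 14 had 1.66 and chromosome X 0.211, with 2 regions, at Eif2s3x and Pcyt1b. Etv4-only promoters were spread in a like manner, with 23.9, 27.8, 21.05 and 22.4 per 100 genes on chromosomes 19, 15, 11 and 1, 7.43 on chromosome 14 and 2.32 on X, compared with 15.8 in all. The share of regions that overlapped was 30.3% over the autosomes alone.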

How the data were processed

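Per the labels, 2 ChIP-seq libraries were compared, 1 for each antibody, amplified by 15 PCR cycles and read on an Ion Proton. Regions were called by the authors in each library with the one-sample mode of CisGenome (window 300 bp, p threshold 0.1), which uses no input. The ChIP-seq methods point to those of the FAIRE-seq libraries, where reads were trimmed to 36 bp and mapped with bowtie2 to mm10. The submitters' processing notes name Bowtie and mm10. In the deposited lists the score is always 1000 and carries no information, and the fourth column holds the region number. Depth per sample is unknown. Ends may be inclusive, so lengths are uncertain by 1 bp, and coordinates count from 1.

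The members and gene lists were chosen with earlier results of these data known. Genes and regions were named by fixed rules: the 15 lowest numbers outside mostly multicopy regions, the 5 longest, genes with 3 or more regions, the 3 regions on each side of the 2 kb limit, regions with an ETS core and AP-1 at most 10 bp apart, and members of the lists. The 4 longer stretches (Shb, Ippk, Nadk and Fkbp2) fall outside these rules and were chosen after their values were seen. A few genes and sequences that these rules select are not reported here. Sequence came from GRCm38 and starts from GENCODE M21. Patterns were searched in 500 bp around the midpoint. Windows of 500 bp, tiled every 250 bp within 2 kb of the gene starts and free of regions of either list, were weighted to GC bins of 2 points and to distance classes, using the nearest class where fewer than 100 windows were available. They were not weighted to the CpG ratio, so the part of CpG content in folds of patterns that contain CpG was not tested. The interval of a fold is that of the share divided by the window share. Functions were tested on simulated data. Alternatives changed the distance limit, overlap rule, window, patterns and filters. The other measurements of the study were not used here. Scripts ran under Python 3.11.15 with matplotlib 3.10.9, numba 0.67.0, numpy 2.4.6, scipy 1.17.1 and pandas 2.3.3.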

Additional observations from a re-analysis of the deposited data

How the results depend on the processing

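Among 57 alternative settings, 31 gave values inside the interval of the reported one (within 1.5 times for counts) and 26 moved beyond it, and of the 9 added after seeing the data (regions without those that are over 50% repeats, differences weighted over quintiles of region number, and differences in the first 50% against regions without any Etv5 region) 7 stayed inside. With quintiles weighted, shared minus Etv4-only promoters came to 11.7 points for AP-1, -12.2 for CpG-rich sequence and -2.00 for the ETS pattern. The share of Etv4 promoter regions that overlapped an Etv5 region was 32.2% at 5 kb, 28.3% with protein-coding starts, 20.2% with an overlap of 50% of both regions, 23.9% with midpoints within 250 bp and 28.9% in the first 50% of both lists by number. The share of shared promoters within 250 bp of a start was 56.2% with protein-coding starts, 44.7% in the first 50% and 50.05% with 50% overlap. The CpG-rich share was 38.2% under a stricter rule, 41.4% over the whole region, 31.3% in the first 50% and 39.2% with 50% overlap. The ETS share was 5.40% in 200 bp, 17.1% in the whole region and 6.27% for the strict pattern. The AP-1 share was 16.1% in 200 bp, 31.8% in the whole region, 35.4% in the first 50%, 31.3% with 50% overlap and 23.2% with protein-coding starts. Protein-coding genes with a shared promoter numbered 815 with 50% overlap. For shared minus Etv4-only promoters, the ETS difference was 2.06 points in the whole region, with an interval that also included 0 (-0.132 to 4.36), and -1.69 points in 200 bp, with an interval that did not (-3.06 to -0.187), the AP-1 difference 6.62 points in 200 bp, and 15.0 in the whole region. Whole regions compare unequal lengths of sequence, with a median of 722 bp in shared and 531 bp in Etv4-only promoters. In the first 50% of both lists, the 664 shared promoters differed from the other 1637 Etv4 promoters, which include regions that overlap a later Etv5 region, by 16.9 points for AP-1 and -25.1 for CpG-rich sequence. Against the 1280 of these without any Etv5 region, the differences were 18.4 and -27.4 points, and -3.32 for the ETS pattern (interval -6.33 to -0.0977). The excess of AP-1 and the deficit of CpG-rich sequence kept their sign in these alternatives but not within every quintile: AP-1 was at -0.532 points in quintile 5, and CpG-rich sequence at 0.314, 4.84 and 10.1 in quintiles 3 to 5, which the weighted values average over. The causes were not tested. No paired analysis was possible because there was a single library for each factor. Depth, replicate spread and an input library could not be assessed, so a region missing from the Etv5 list may lie below its calling threshold, and Etv4-only does not show that Etv5 was absent.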
